A study of Mus musculus with 36 samples.

Results

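Microglia are the resident macrophages of the brain, and 33 genes of these cells and of the complement cascade they feed are described here in the forebrain and cerebellum of 3 mutant mouse lines. The members were taken by gene symbol, from a list drawn up with earlier results of these data known, out of 18193 genes with a probe set on the arrays. Where a gene had several probe sets, the one brightest on average across all arrays stood for it. Of the 33, 31 had a probe set with 1 gene symbol. C3, the central complement component, was not named by any probe set in the table used here, and the probe set for C4b, the complement component that C1 cleaves, is shared with C4a, so neither was analysed here.

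RNA of mouse forebrain or cerebellum was hybridised to 36 one-colour oligonucleotide arrays in 12 groups of 3. The 3 lines carry the labels stg, Tg and Lh, read here as stargazer (a mutation of the calcium channel subunit and AMPA receptor regulator Cacng2), tottering (the calcium channel pore Cacna1a) and lethargic (the calcium channel subunit Cacnb4), although the labels do not spell these names out. Each line has a mutant group (-/-) and a group taken here as wild type (+/+, although the labels use the word mutant for these mice too) in each tissue, so the 12 groups are stg-/-, stg+/+, Tg-/-, Tg+/+, Lh-/- and Lh+/+ in forebrain and the same 6 in cerebellum. Age, sex and strain are not given in the labels, which also do not say that each array is a separate animal or whether both tissues came from the same mice, so p-values measure the spread between these samples.

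In the brain, microglia depend on signals through the receptor Csf1r, sense nucleotides through P2ry12 and neuronal fractalkine through Cx3cr1, and signal through the adaptor Tyrobp together with Trem2. They are the main source of C1q in the brain, the first component of the classical complement pathway, whose chains are encoded by C1qa, C1qb and C1qc. C1q marks synapses and cell debris, and complement receptor 3, a pair of integrin chains encoded by Itgam and Itgb2, takes up what complement has tagged. Resting microglia are known by genes such as P2ry12, Tmem119, Siglech and Gpr34, and phagocytic ones by lysosomal genes such as Cd68 and Ctss.

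The label check and the array checks were as follows. Cacng2 read 1.6 to 6.9 on the 6 stg-/- arrays and 201.9 to 841.1 on all others. In forebrain Cacnb4 read 591.1 to 656.3 on the Lh-/- arrays, 757.5 on Tg+/+ replicate 2 and 1140.9 to 1483.8 on the other arrays. The cause of the low Tg+/+ value was not tested. In cerebellum Cacnb4 read 1300.4 to 1508 in Lh-/- and 1820.5 to 2596.4 in Lh+/+, without overlap. Over the arrays of all groups but Lh-/- it ran from 1474, on stg-/- replicate 2, to 2596.4, and so overlapped Lh-/-. Cacna1a overlapped between Tg-/- and Tg+/+ in both tissues, so it gave no check of the Tg labels. Between arrays of a group the log2 signals correlated at 0.935 to 0.964, and no pair held identical values. A few features touch the results below: prolactin, a pituitary transcript, read 2085.7 to 6051.8 on 3 forebrain arrays (stg+/+ replicates 1 and 2 and Lh+/+ replicate 3), choroid plexus and meninges genes were low on 2 cerebellar arrays (stg+/+ replicate 2 and Lh+/+ replicate 3), and granulocyte genes were high on stg+/+ cerebellar replicate 1.

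The first comparison asked how the members stand in the 2 tissues of wild-type mice. They were lower in cerebellum than in forebrain almost throughout. Of 29 members tested, 27 fell in cerebellum and 0 rose (limma, Benjamini-Hochberg adjusted p under 0.05), while 58.2% of all 27022 probe sets differed and 25.8% were lower. Aif1, Itgam and Gpr34 are among the 27, and they passed the filter over all arrays but not over the cerebellar arrays. A lower level in cerebellum was therefore favoured in advance for them. The median log2 difference, cerebellum minus forebrain, was -1.23 over the members, which is 0.427 of the forebrain level, and 0.06 over all probe sets. In whole tissue, fewer cells of a type and less RNA per cell cannot be told apart.

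Csf1r, the receptor for the growth factors that keep microglia alive, ran from 1189.7 to 1613 in the 9 +/+ forebrains with a median of 1356, and from 420.1 to 569 with a median of 477 in the 9 +/+ cerebella. P2ry12, the ADP receptor of resting microglia, had medians of 260.3 and 73.8, with ranges of 217 to 303 and 55.4 to 85.8. Neither gene overlapped between tissues. The log2 difference was -1.46 (SE 0.06, limma adjusted p = 2.27e-19) for Csf1r and -1.76 (SE 0.10, adjusted p = 2.56e-16) for P2ry12.

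The C1q chains were on the same footing. C1qa ran from 362 to 488 in forebrain and from 117 to 186 in cerebellum, C1qb from 252 to 445 and from 102 to 193, and C1qc from 145 to 272 and from 47.5 to 77.9. None of the 3 overlapped between tissues, and their log2 differences were -1.42, -1.28 and -1.64. Selplg, the glycoprotein ligand of selectins (-1.38), Laptm5, a lysosomal membrane protein (-1.39), and Ly86, the partner of the Toll-like receptor relative RP105 (-1.22), complete the 8 members with the smallest p. Larger differences with more spread were those of Mpeg1, the pore-forming perforin-2 of phagocytes (-2.24, SE 0.28), and Aif1, the calcium-binding protein Iba1 (-2.19, SE 0.22). Aif1 did not pass the filter over the cerebellar arrays.

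The 8 receptors and adaptors of activation tested differed by -1.23 to -0.80, and the 8 resting-state genes by -1.76 to -0.76, each called. Among the former, Ptpn6 had medians of 57.5 in forebrain and 52.6 in cerebellum, and its call was lost in 2 of 9 settings. Tmem119, a surface protein of microglia, differed by -1.11, Cx3cr1 by -1.34, Tyrobp by -1.23 and Cd68, a lysosomal glycoprotein, by -1.33. The Cx3cr1 arrays overlapped, at 77.2 to 173 in forebrain and 35.7 to 81.7 in cerebellum. Ctss, the lysosomal protease cathepsin S, fell by less, 0.79 on the log2 scale, from a median of 882 to 524. Only Lyz2, lysozyme (-0.13, adjusted p = 0.384), and Irf8, a transcription factor of the myeloid lineage (-0.31, adjusted p = 0.103), were not called among the 29 tested. Trem2 was left out of this test by the filter on dim probe sets, with a +/+ median of 43.5 in forebrain and 5.48 in cerebellum and no overlap, and Cd86, a co-stimulatory ligand, read under 32 on every +/+ array of both tissues.

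**Figure D1:**
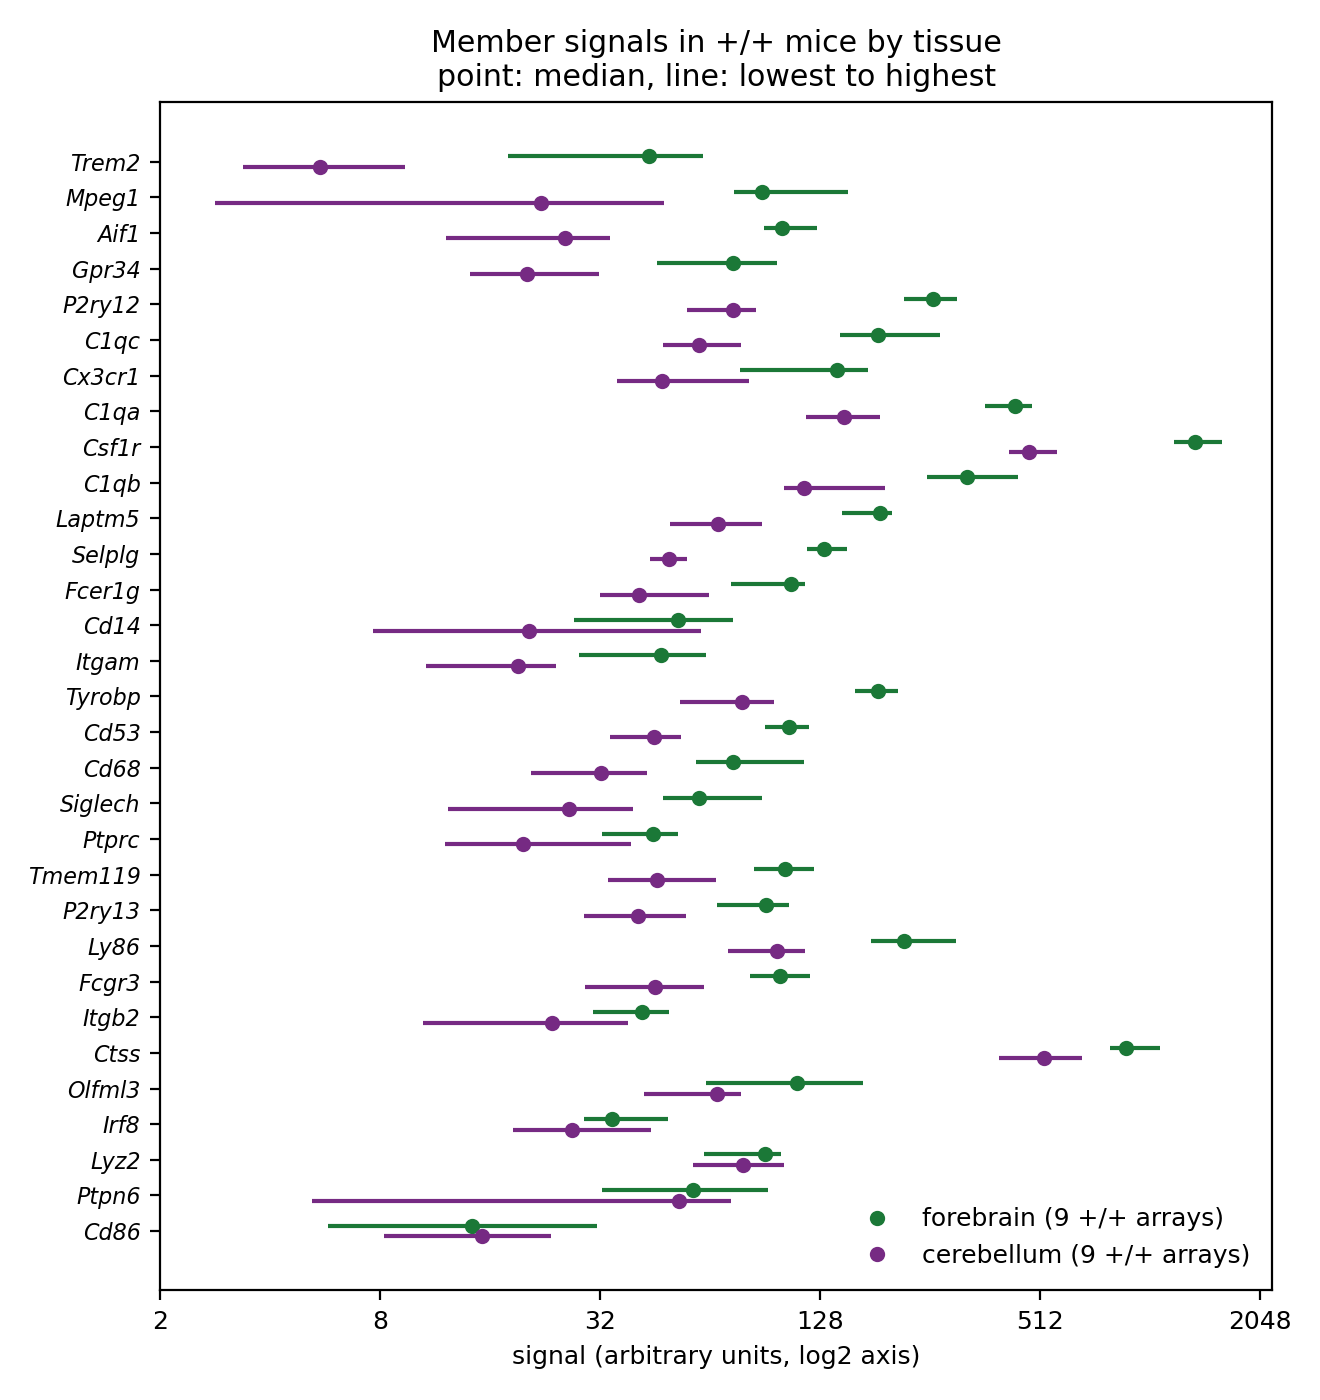
Signal of each of the 31 members (arbitrary units, log2 axis) on the 9 +/+ arrays of each tissue, with the point at the median and the line from the lowest to the highest array, ordered by the ratio of medians. Csf1r, P2ry12 and the C1q genes lie well to the right in forebrain. Lyz2, Irf8, Ptpn6, Cd86, Cx3cr1, Itgb2, Ptprc, Cd14 and Olfml3 overlap between tissues, and the other 22 members do not.

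Of a further list of 55 microglia genes, 33 were tested between tissues, and 22 were lower and 1 higher in cerebellum, with a median of -0.62. Examples are Lpcat2, an enzyme of phospholipid synthesis (-1.31), and Sall1, a transcription factor of microglial identity (-1.54). Neuron markers also had a negative median, -0.48, and oligodendrocyte markers one of -0.50, whereas astrocyte markers had a median of 0.37.

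The second comparison was between -/- and +/+ within each line in cerebellum, where 26 members were tested. Aif1, Trem2, Itgam, Gpr34 and Cd86 did not pass the filter there. Their signals ran from 5.08 to 35.7, 3.12 to 28.6, 9.64 to 29.9, 14.1 to 35.96 and 5.33 to 32.5 over the 18 arrays, and no change within cerebellum is given for them. The filter used the mean over all arrays of the tissue, mutant arrays included, so a dim member that is high in mutants passed more easily. Ptprc, Cd14 and Mpeg1 passed with +/+ cerebellar medians of 19.7, 20.4 and 22.1, and Aif1 with 25.7 did not. The counts in cerebellum below rest on the members that passed. With no filter the members' median change was 0.25 in stg and 0.39 in Lh.

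The members leaned upward in all 3 mutants, but few passed the test gene by gene. In Tg cerebellum 22 of 26 members were above 0 with a median log2 change of 0.27, and 1 was called, C1qc, against 0.574% of all probe sets, with 5 at an unadjusted p under 0.05 (7.28% of all). In Lh cerebellum 25 of 26 were above 0 with a median of 0.39, and 0 were called in limma, against 0.155% of all probe sets, with 6 at an unadjusted p under 0.05 (7.62% of all). In stg cerebellum 21 of 26 were above 0 with a median of 0.27, and 0 were called, against 1.3% of all probe sets, with 3 at an unadjusted p under 0.05 (10.7% of all). The median over all probe sets was -0.01, 0.02 and 0.01 in the same 3 comparisons, and 48.4%, 53.9% and 52.3% of them were above 0.

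C1qc carried the clearest single change. In Tg it read 138, 119 and 125 on the -/- arrays and 55.1, 70.2 and 47.5 on the +/+ arrays, so every mutant array lay above every wild-type array. The group means were 128 ± 9.75 and 57.6 ± 11.6 (SD, n = 3 each), and the log2 change was 1.12 (SE 0.18, limma adjusted p = 0.00539). In stg the -/- arrays read 90.3, 132 and 128 and the +/+ arrays 60.3, 71.2 and 77.9, again without overlap. The log2 change of 0.71 (SE 0.18) was not called in limma (adjusted p = 0.0709). It was called with the replicate numbers of the titles as a block in all 3 lines (adjusted p = 0.0402). In Lh the values of 61.5, 64.1 and 59.5 against 48.1, 55.4 and 59.6 overlapped, with a log2 change of 0.18 (adjusted p = 0.901).

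The promoters of C1qb and C1qc are shown because these neighbouring genes, with C1qa, were the members called over the 3 lines. In the RefSeq annotation of GRCm38.p6 C1qb, C1qc and C1qa follow one another on chromosome 4, between a long non-coding RNA gene and Epha8. The lines give 250 bases upstream of the start of C1qb (chr4:136886201-136886450, minus strand) and of C1qc (chr4:136892915-136893164, minus strand), 5′ to 3′, from RefSeq. Capitals mark the only match to GAGGAAGT, the motif of the myeloid transcription factor PU.1, read on the opposite strand, 195 to 188 bases before the start of C1qc.
C1qb: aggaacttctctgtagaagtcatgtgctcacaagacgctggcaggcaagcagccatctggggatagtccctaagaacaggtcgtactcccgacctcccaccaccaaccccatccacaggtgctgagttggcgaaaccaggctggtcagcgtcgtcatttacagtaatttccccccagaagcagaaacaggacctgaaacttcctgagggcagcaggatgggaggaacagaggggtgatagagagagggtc
C1qc: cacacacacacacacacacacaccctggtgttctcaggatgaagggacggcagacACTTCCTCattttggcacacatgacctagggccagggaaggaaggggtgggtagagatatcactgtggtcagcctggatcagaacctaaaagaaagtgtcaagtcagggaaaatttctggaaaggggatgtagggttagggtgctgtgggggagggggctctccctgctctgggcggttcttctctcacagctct
Of the 23 members with a promoter in the table, 1 held GAGGAAGT on either strand, against 2.44% of 32851 promoters. The composite motif of PU.1 and interferon regulatory factors was found in 0 of the 23 and in 2.3% of all. The interferon response core, which can overlap that composite, was found in Aif1 and Ctss and in 2.98% of all promoters. A match is a description of letters and not a site of binding.

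C1qa and C1qb, which encode the other chains of C1q, had smaller differences than C1qc in stg and Tg and larger ones in Lh. C1qa in Lh read 254, 212 and 208 on the -/- arrays and 149, 146 and 169 on the +/+ arrays, a log2 change of 0.53 (SE 0.13, adjusted p = 0.145). The mutant arrays did not overlap the wild-type arrays in any of the 3 lines, since C1qa also read 148, 165 and 194 against 117, 146 and 144 in stg and 214, 196 and 221 against 186, 180 and 182 in Tg. The changes in those lines were 0.31 (adjusted p = 0.37) and 0.20 (adjusted p = 0.879).

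C1qb was furthest apart in Tg, at 237, 173 and 185 against 150.0, 108 and 104, a log2 change of 0.71 (SE 0.19, adjusted p = 0.123). In Lh it read 190.1, 130.0 and 127 against 105, 115 and 102, without overlap (0.44, adjusted p = 0.576). In stg 1 wild-type array at 193 reached into the mutant range of 174 to 224 (0.29, adjusted p = 0.629). Further C1qb probe sets gave 0.29 and 0.82 in Tg, 0.60 and 0.77 in Lh and 0.04 and -0.07 in stg, none called. Itgb2, the beta chain of complement receptor 3, was the other complement member tested. Its changes were -0.38 in stg, 0.63 in Tg and 0.47 in Lh, none called.

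**Figure D2:**
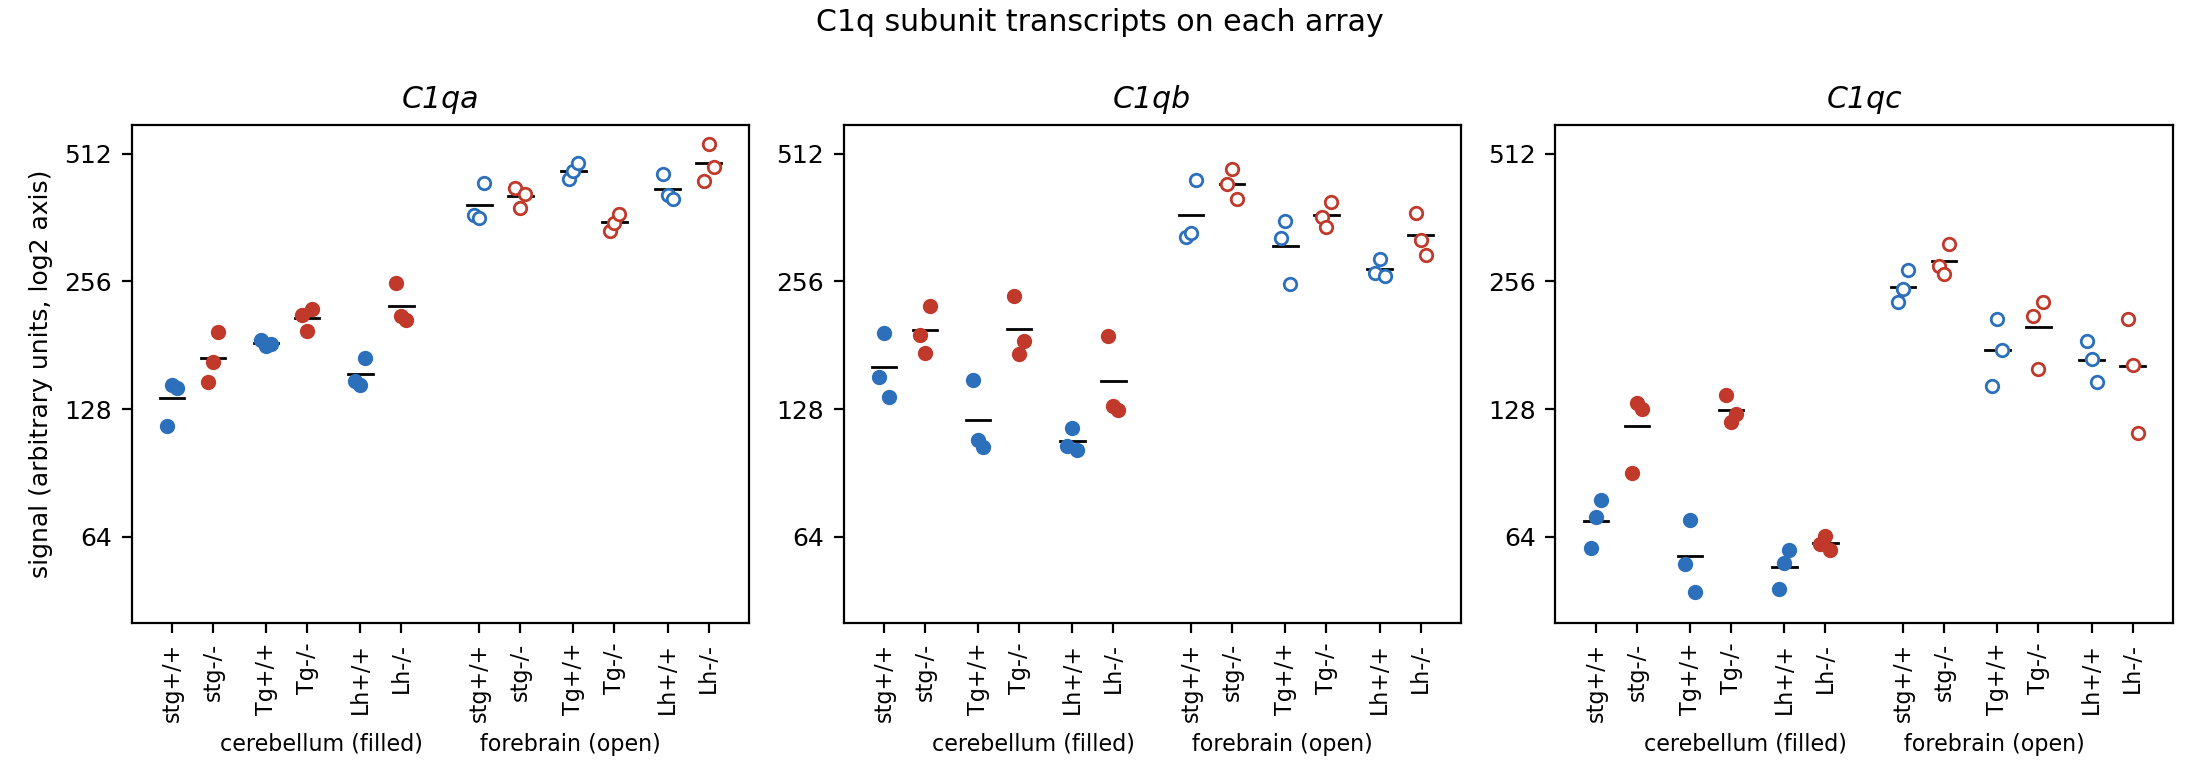
Signal of C1qa, C1qb and C1qc (arbitrary units, log2 axis) on every array, with +/+ in blue, -/- in red, cerebellum filled, forebrain open and black bars at the mean of 3 arrays. In cerebellum C1qc of Tg-/- (119 to 138) stands above Tg+/+ (47.5 to 70.2), and every forebrain array lies above every cerebellar array of the same gene except for C1qc on 1 Lh-/- forebrain array (113).

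Among identity and growth factor genes, Csf1r read 725, 624 and 704 in Tg-/- and 569, 508 and 474 in Tg+/+ cerebellum. The arrays did not overlap, and the log2 change was 0.40 (SE 0.12, adjusted p = 0.211). It was 0.22 in Lh and 0.10 in stg. Further Csf1r probe sets gave 0.14 and 0.08 in Tg, 0.21 and -0.21 in Lh and 0.17 and 0.34 in stg, none called. Irf8 changed sign between lines, at 0.05 in stg, -0.22 in Tg and 0.22 in Lh, none called.

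The resting-state genes had small positive values. P2ry12 read 82.3, 79.9 and 79.3 in stg-/- against 73.8, 55.4 and 85.8 in stg+/+, with log2 values of 0.18 in stg, 0.24 in Tg and 0.26 in Lh. Tmem119 gave 0.24, 0.29 and 0.36 and Cx3cr1 0.24, 0.07 and 0.20 in the same order, with all adjusted p above 0.7. Selplg was apart in Tg and in Lh, at 61.2 to 71.6 against 46.3 to 51.3 in Lh (0.39, adjusted p = 0.669). P2ry13, a further ADP receptor, was the member of this role below 0 in stg (-0.38), with 0.05 in Tg and 0.28 in Lh, and Siglech was at -0.01 in Tg.

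Receptors and adaptors of activation were above 0 in 7 of 8 members in each line, with medians of 0.28, 0.40 and 0.40 in stg, Tg and Lh. Tyrobp read 115, 110.1 and 97.3 in Lh-/- against 82.0, 76.9 and 78.5 in Lh+/+, without overlap, with log2 values of 0.42 in Lh, 0.53 in Tg and 0.33 in stg. Cd14, the lipopolysaccharide co-receptor, read 28.4, 45.5 and 33.5 in Lh-/- against 7.64, 18.5 and 17.1, the largest change of a member in that line (1.20, SE 0.39, adjusted p = 0.359). In stg it was below 0 (-0.21) and in Tg near 0 (0.09). Ly86 read 137, 120 and 147 against 97.8, 117 and 104 in Tg, and 104, 107 and 113 against 73.0, 85.1 and 88.4 in Lh, apart in both, with log2 values of 0.33 and 0.39. Cd53, a tetraspanin of leukocytes (0.49), and Fcer1g, the common gamma chain of Fc receptors (0.47), were among the members with the smallest p in Tg, with adjusted p of 0.652 and 0.749.

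Lysosomal and phagosomal members were uneven. Ctss read 810.5, 759 and 754 in Lh-/- against 396, 614 and 504 in Lh+/+, without overlap (0.64, SE 0.18, adjusted p = 0.252), but 0.05 in Tg. Lyz2 did not overlap in Lh, at 95.6 to 105 against 57.3 to 78.6 (0.49), with -0.08 in each of the other lines. Mpeg1 read 74.5, 79.2 and 90.0 in Tg-/- against 22.1, 48.0 and 43.0 (1.11, SE 0.59), and 26.1, 42.2 and 51.3 in stg-/- against 2.84, 14.2 and 31.8 (1.46, SE 0.59, adjusted p = 0.347). Its wild-type signals came close to the floor, and its SE was among the largest of the members. Cd68 gave 0.30 in stg and 0.43 in both Tg and Lh, with adjusted p from 0.776 to 0.86.

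Counted by arrays that do not overlap, 2 of the 26 members were higher in stg-/- (against 8.13% of all probe sets), 9 in Tg-/- (against 7.23%) and 11 in Lh-/- (against 7.21%). None was lower without overlap in any of the 3 lines, against 7.48%, 6.81% and 5.47%. Above 0 in all 3 lines were 17 of 26 members, against 16.3% of all probe sets, and 0 were below 0 in all 3, against 13.5%. Members share cells and a sample, so these counts are no replicates of the condition.

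**Figure D3:**
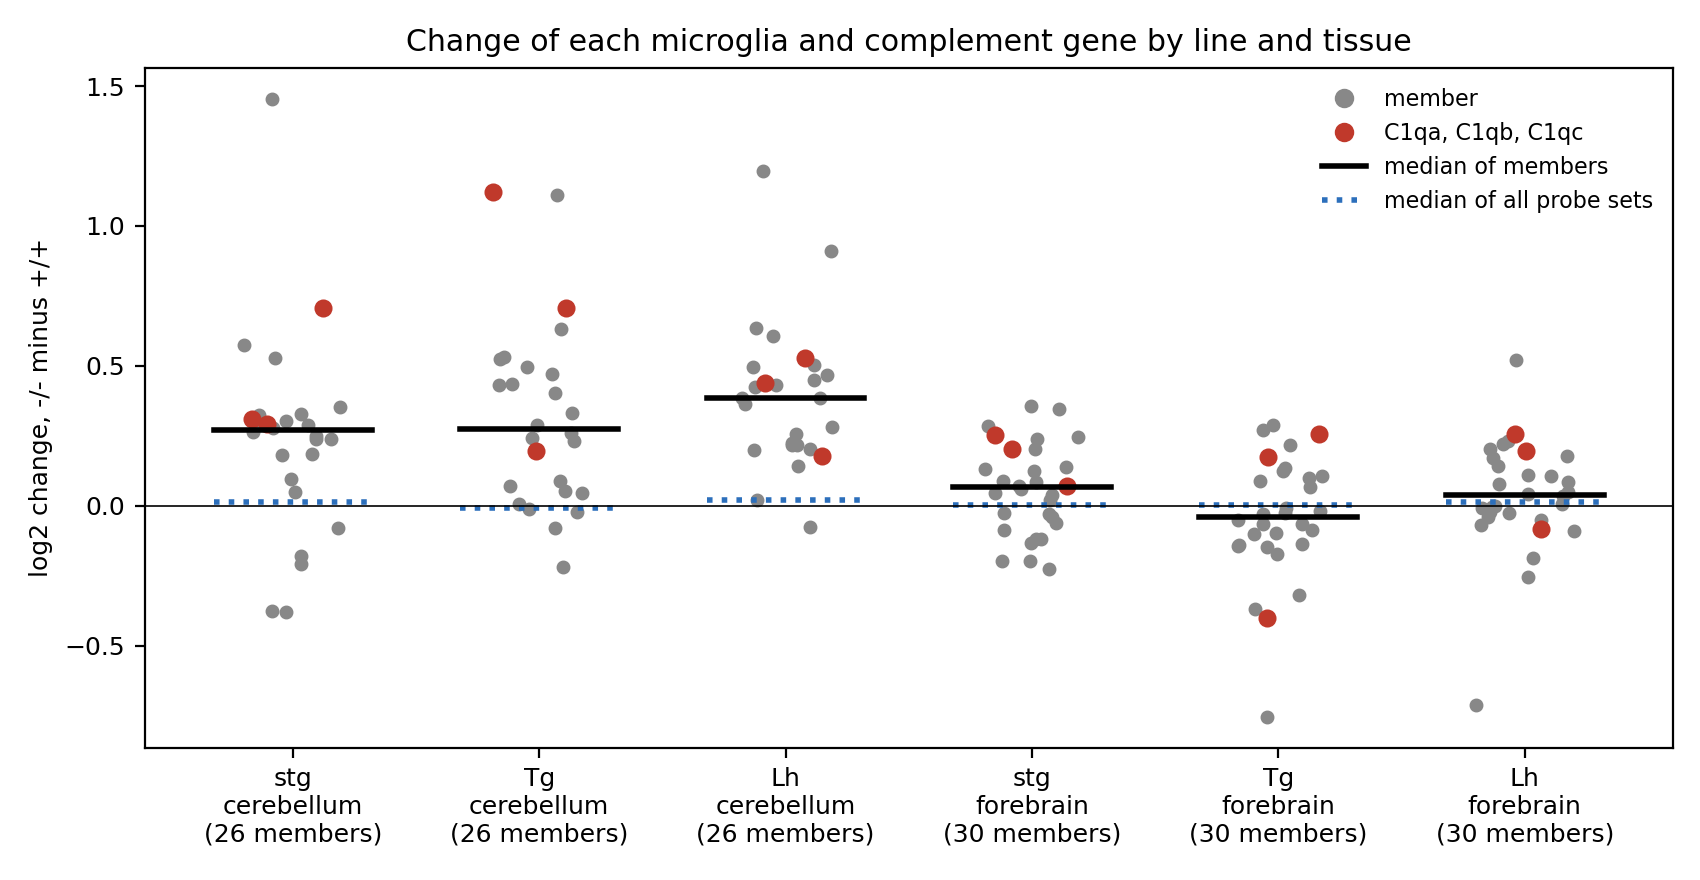
Log2 change of each tested member (-/- minus +/+) by line and tissue, with the C1q genes in red, the median of the members as a black bar and the median of all probe sets as a blue dotted bar. In cerebellum the black bars stand at 0.27, 0.27 and 0.39, and in forebrain at 0.07, -0.04 and 0.04.

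Array by array, the number of members above their own median over the 18 cerebellar arrays separated Lh and Tg. It was 17, 18 and 23 of 26 in Lh-/- and 6, 7 and 5 in Lh+/+. It was 22, 15 and 19 in Tg-/- and 11, 11 and 7 in Tg+/+. In stg-/- it was 9, 21 and 14, against 9, 12 and 8 in stg+/+, so that stg-/- replicate 1 lay within the wild-type range. The same count was not made for all probe sets. Their mean log2 signal was also higher in Lh-/- (7.27 to 7.28) than in Lh+/+ (7.21 to 7.26), and overlapped between genotypes in Tg and stg. With quantile normalization the members' median change in Lh was 0.31, against 0.39 as reported. With each of the 6 stg arrays left out in turn, the members' median was 0.20 to 0.30. C1qc was called without stg-/- replicate 1, its lowest mutant array (0.88, limma adjusted p = 0.0313), and not without any other (adjusted p of 0.0971 to 0.271).

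**Figure D4:**
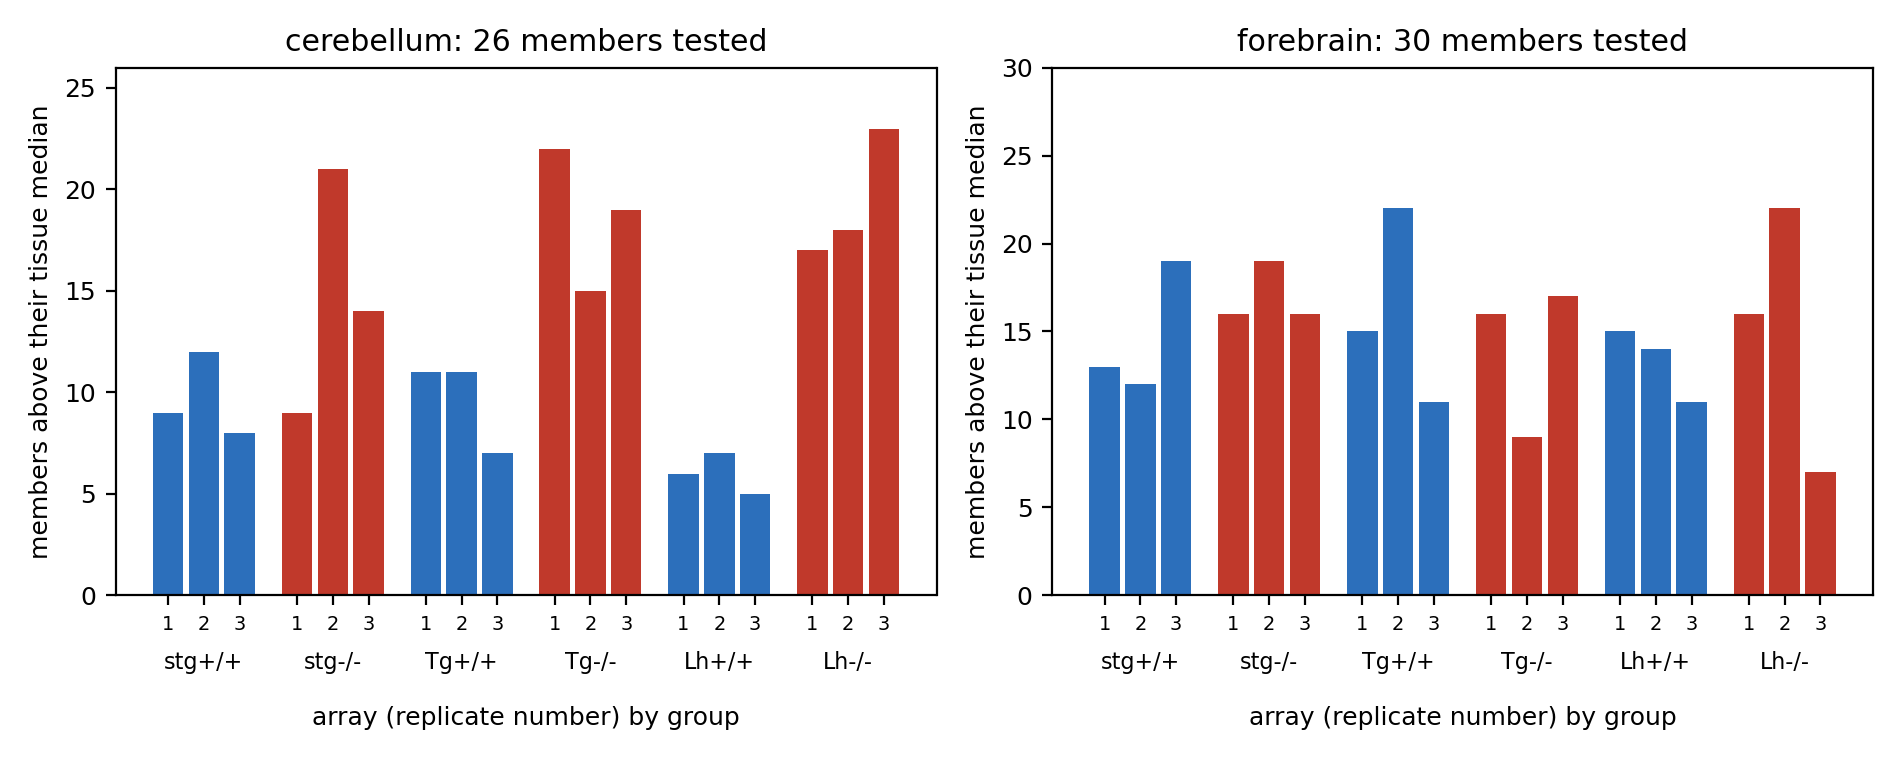
Number of tested members whose signal lies above that member's median over the 18 arrays of the tissue, 1 bar for each array, with +/+ in blue and -/- in red. The cerebellar bars of Lh-/- (17 to 23) and Tg-/- (15 to 22) stand above those of their +/+ groups (5 to 7 and 7 to 11), and the forebrain bars of both genotypes overlap.

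Taking the mean of the 3 lines' effects in cerebellum, 3 members rose and none fell. They were C1qc (0.67, SE 0.11, limma adjusted p = 0.00159), C1qa (0.34, SE 0.08, adjusted p = 0.0205) and C1qb (0.48, SE 0.11, adjusted p = 0.024), against 1.97% of all probe sets called and 1.04% called higher. At an unadjusted p under 0.05 there were 13 of 26, all higher, against 12.3% of all probe sets and 6.82% higher. The median over the members was 0.32, a fold of 1.25, and 25 of 26 were above 0, against a median of 0.01 and 51.7% for all probe sets. C1qb lost its call when any 1 of 5 arrays was left out (stg-/- replicate 3, stg+/+ replicate 3, Tg+/+ replicates 2 and 3 and Lh+/+ replicate 3), with adjusted p of 0.0501 to 0.0564.

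Next to the C1q genes stood Ly86 (0.32, adjusted p = 0.0859), Csf1r (0.24, adjusted p = 0.0866), Tyrobp (0.43, adjusted p = 0.0968) and Mpeg1 (1.16, adjusted p = 0.0976), none called. Cd68 (0.39), Tmem119 (0.30), P2ry12 (0.23) and Cx3cr1 (0.17) had adjusted p from 0.298 to 0.754. By role, the 4 complement members tested had a median of 0.41, the 5 lysosomal ones 0.34, the 8 receptors and adaptors 0.33, the 7 resting-state genes 0.23 and the 2 identity genes 0.13.

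Whether the effect differed among the lines was tested directly, and 0 of 26 members were called, against 0.315% of all probe sets (limma F test), with 1 at an unadjusted p under 0.05 (7.72% of all). That was C1qc (adjusted p = 0.328), followed by Cd14 (0.649), Itgb2 (0.751), Ctss (0.763), Lyz2 (0.801) and Laptm5 (0.825). The +/+ groups of the 3 lines also gave 0 called members, against 0.881% of all probe sets, with 3 at an unadjusted p under 0.05 (10.2% of all). Among these C1qa had the lowest adjusted p (0.312), with +/+ means of 136 ± 16.2 in stg, 183 ± 3.21 in Tg and 155 ± 12.7 in Lh (SD, n = 3 each). The next 7 were Cd14, C1qb, Cx3cr1, Itgb2, Mpeg1, Ly86 and Tmem119, with adjusted p of 0.317 to 0.629.

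The third comparison was the same contrast in forebrain, with 30 members tested and Cd86 below the filter. No member was called in any line, against 0.0111% of all probe sets in stg, 0.189% in Tg and 0.0148% in Lh (limma), and at an unadjusted p under 0.05 there were 0, 2 and 0 (2.55%, 5.68% and 3.87% of all). The medians were 0.07, -0.04 and 0.04, with 19, 11 and 17 of 30 members above 0 (50.4%, 50.6% and 52.9% of all). The members were spread to both sides of 0.

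The 2 members at an unadjusted p under 0.05 in Tg forebrain were below wild type. C1qa read 336, 352 and 370.0 in Tg-/- and 447, 466 and 488 in Tg+/+, without overlap (-0.40, SE 0.11, adjusted p = 0.219), whereas in the cerebellum of the same line the mutant arrays were the higher ones. Aif1 read 69.8, 62.2 and 49.1 against 101, 98.2 and 110.3, also without overlap (-0.75, SE 0.23, adjusted p = 0.41). These are the 2 of 30 members lower without overlap, against 5.06% of all probe sets, and 1, Ctss, was higher, against 4.64%. C1qb (0.26), Csf1r (-0.15), Olfml3, a secreted matrix protein (-0.37), and Selplg (-0.14) followed by p.

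In stg and Lh forebrain the smallest p belonged to C1qb and Itgb2. C1qb read 435, 472 and 400.1 in stg-/- and 326, 333 and 445 in stg+/+ (0.25, adjusted p = 1). Both low wild-type values were from arrays with prolactin signal, and without those arrays, which leaves 1 stg+/+ array, the change was -0.0346. The part of the pituitary transcripts in this value was not tested further. Fcgr3 (0.28), Ptprc (0.34), Tmem119 (0.20), Olfml3 (0.36) and Lyz2 (0.24) came next in stg. Itgb2 read 49.98, 41.2 and 65.3 in Lh-/- and 31.3, 44.3 and 30.6 in Lh+/+ (0.52, adjusted p = 1), followed by C1qa (0.20), C1qb (0.26), Trem2 (-0.71), Gpr34 (-0.25) and Cx3cr1 (0.22). Of the 30 members 1 was higher without overlap in each of stg (Ptprc) and Lh (C1qb), against 3.59% and 6.2% of all probe sets, and 0 were lower without overlap, against 3.87% and 4.5%.

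Over the 3 lines the mean effect in forebrain called 0 of 30 members, against 0.0148% of all probe sets, with a median of 0.02, 18 above 0 (52.7% of all) and 1 at an unadjusted p under 0.05 (4.5% of all). C1qb had the lowest p (0.26, SE 0.08, adjusted p = 0.86). Aif1 (-0.26), Ptprc (0.17), Fcgr3 (0.12), Trem2 (-0.32) and Siglech (0.16) followed. C1qa (-0.05), C1qc (0.10), Csf1r (-0.01), P2ry12 (0.06), Tmem119 (0.03), Tyrobp (-0.04), Cd68 (0.11) and Cx3cr1 (0.10) were near 0. The effect differed among lines for 0 members, against 0.0259%, with C1qa (adjusted p = 0.672) the only one at an unadjusted p under 0.05 (3.76% of all) and Aif1, Itgb2, Olfml3, Csf1r and Tmem119 next. The +/+ forebrains differed for 0 members, against 0.414%, with 2 at an unadjusted p under 0.05 (7.06% of all). C1qc (adjusted p = 0.513), C1qb, C1qa, Cx3cr1, Ctss, P2ry13, Laptm5 and Tmem119 had the smallest p.

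The difference of the effect between tissues, cerebellum minus forebrain, was tested for 29 members, and 0 were called in each line, against 0.248% of all probe sets in stg, 0.0259% in Tg and 0.0111% in Lh (limma). At an unadjusted p under 0.05 there were 1, 4 and 3 members (6.11%, 3.51% and 4.88% of all). The medians were 0.06 in stg, 0.44 in Tg and 0.28 in Lh, with 19, 24 and 26 of 29 above 0 (51.4%, 48.3% and 50.7% of all). In Tg the smallest p belonged to C1qa (0.60, SE 0.16, adjusted p = 0.608), Csf1r (0.55), C1qc (0.95), Tyrobp (0.58), Cd53 (0.56) and Ly86 (0.44). In Lh they were Ctss (0.66, SE 0.22, adjusted p = 0.745), Gpr34 (0.89), C1qa (0.33), Cd14 (0.97), Lyz2 (0.59) and Ly86 (0.35). In stg they were Mpeg1 (1.65, SE 0.68, adjusted p = 0.659), C1qc (0.50), Ctss (0.41), C1qa (0.24), Aif1 (-0.77) and Tyrobp (0.39). Gpr34, Aif1 and Itgam, counted in the 29, did not pass the cerebellar filter and entered through the mean over all arrays. Their differences rest on dim cerebellar signals.

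Other genes of the pathway were read from further lists in cerebellum. Beside the list counts over the 3 lines stand 1.97% of all probe sets called, 1.04% called higher and 51.7% above 0. Of 8 complement regulators tested, 3 rose over the 3 lines and 0 fell. Serping1, the C1 inhibitor that blocks the proteases bound to C1q, read 298, 375 and 322 in stg-/- and 190.4, 171 and 213 in stg+/+, without overlap (0.78, SE 0.12, limma adjusted p = 0.00106). It was 0.22 in Tg and 0.28 in Lh, where it was not called, and 0.43 as the mean of the lines (adjusted p = 0.00159). Csmd2 (1.01, adjusted p = 0.0147) and Sez6 (0.43, adjusted p = 0.0122), neuronal proteins with complement-control domains, were the other called regulators, and Sez6 was also called in stg (0.72, adjusted p = 0.0186, lost in 6 of 17 settings). Of 4 other complement genes tested, 0 were called in the mean of the lines and 3 were above 0, with a median of 0.06.

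Of 32 further microglia genes tested, 28 were above 0 with a median of 0.18, 3 rose and 1 fell. Lcp1, an actin-bundling protein of leukocytes (0.72, adjusted p = 0.0351), Plxdc2, a transmembrane protein (0.31, adjusted p = 0.0447), and Sparc, a matrix glycoprotein (0.21, adjusted p = 0.0187), were higher. Coro1a, a leukocyte actin regulator, fell by 0.40 (adjusted p = 0.00364). The Plxdc2 call was lost in 19 of 28 alternative settings and the Lcp1 call in 13 of 27. Of 14 ligands and checkpoint signals, 13 were above 0, with a median of 0.18, and Gas6, a ligand of the TAM receptors, rose (0.29, adjusted p = 0.0181). In stg Gas6 (0.46, adjusted p = 0.0411) and Cd47, the signal that restrains phagocytosis (0.53, adjusted p = 0.00392), rose. Those calls were lost in 10 and 2 of 17 settings.

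Of 18 genes of activated microglia, 15 were above 0 with a median of 0.20, and Timp2, a metalloprotease inhibitor (0.62, adjusted p = 0.000402), and Cd9, a tetraspanin (0.32, adjusted p = 0.0257, lost in 7 of 28 settings), rose. Timp2 was also called in stg (0.73, adjusted p = 0.013, lost in 4 of 17 settings). H2-Aa, a class II antigen-presenting chain, read 59.7, 57.1 and 74.5 in Tg-/- and 20.9, 21.8 and 10.4 in Tg+/+ (1.73, SE 0.37, adjusted p = 0.0333), a call lost in 8 of 16 alternative settings. Of 5 cytokine and mediator genes tested, 4 were above 0 and 0 were called, with a median of 0.19. In forebrain none of these 6 lists had a called gene in any line, against 0.0111% of all probe sets in stg, 0.189% in Tg and 0.0148% in Lh. With so few calls over all probe sets, the absence of calls in short lists says little about the lists. Which cells of the whole tissue gave the signals of the listed genes, such as Timp2, Cd9 and Sparc, was not tested.

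Markers of other cell types moved as well in the same mean over the lines. Choroid plexus and meninges genes were above 0 in 12 of 12 with a median of 0.32, as high as that of the members, and 0 called. Their summed signal ran from 4984 to 15393 in stg+/+ and 13564 to 18441 in stg-/-, from 8236 to 15639.8 in Lh+/+ and 12086 to 15668 in Lh-/-, and from 13428 to 14586 in Tg+/+ and 14020.0 to 16064 in Tg-/-. Without the low stg+/+ replicate 2 the members' median in stg was 0.29, and without the low Lh+/+ replicate 3 that in Lh was 0.40. By line, the choroid and meninges median was 0.37 in stg (11 of 12 above 0) and 0.88 in Lh (12 of 12), above the members' own medians there, and 0.05 in Tg (8 of 12), where C1qc was called.

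Oligodendrocyte markers were above 0 in 9 of 9, with a median of 0.15 and Mobp (0.24, lost in 19 of 28 settings) and Mal (0.36) called, and astrocyte markers in 11 of 13, with a median of 0.08. Gfap, the filament protein of astrocytes, read 481, 895 and 491 in stg-/- against 319, 399 and 239 (0.93, adjusted p = 0.0283, lost in 5 of 17 settings) and was called over the lines (0.74, adjusted p = 0.00187), as was the gap junction gene Gja1 (0.22, adjusted p = 0.0302, lost in 12 of 28 settings). Neuron markers were above 0 in 2 of 10, with a median of -0.11, and Snap25 fell by 0.23 (adjusted p = 0.0293), a call lost in 13 of 28 settings. Endothelial and mural markers were above 0 in 6 of 11, with a median of 0.03. The part of these cell types in the members' values was not tested.

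Border macrophage markers were above 0 in 3 of 5 tested, with a median of 0.05 and summed signals of 293 to 329 in stg+/+ and 328 to 401 in stg-/-, 267 to 311 in Tg+/+ and 185 to 290.1 in Tg-/-, and 291 to 342 in Lh+/+ and 319 to 350 in Lh-/-. Of their genes, Mrc1, Pf4 and F13a1 passed the filter in both tissues, with cerebellar medians of 47.0, 48.3 and 36.6, and Cd163, Lyve1 and Ms4a7 were below it. Of the lymphocyte markers 1 of 12 and of the granulocyte and monocyte markers 2 of 10 passed the filter in cerebellum. The lymphocyte marker that passed was the T cell gene Cd8a, with a cerebellar median of 37.0 and a highest value of 69.6. The T cell genes Cd3e and Cd3g, with medians of 9.23 and 7.50, were below the filter. Of the blood markers 1 of 3 passed it, below 0. The granulocyte sum reached 1069 on stg+/+ replicate 1, against 111 to 259 on the other cerebellar arrays.

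**Figure D5:**
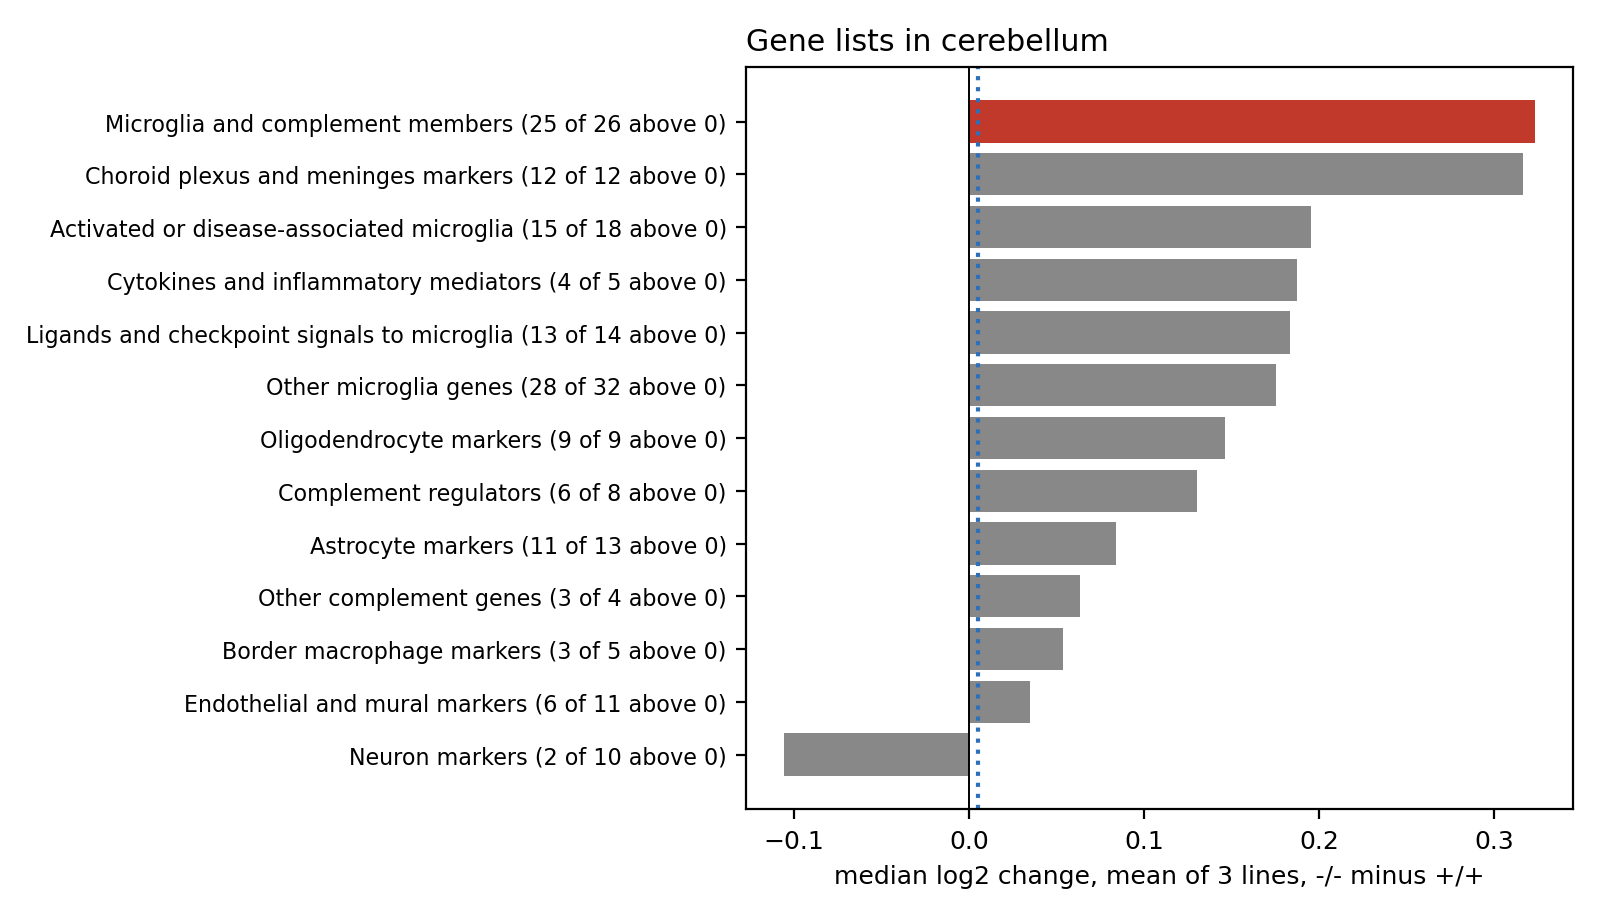
Median log2 change (-/- minus +/+, mean of the 3 lines, cerebellum) of the members in red and of each list with 4 or more tested genes in grey, with the count above 0 beside each name and the median of all probe sets as a blue dotted line. The members (0.32) and the choroid plexus and meninges markers (0.32) lie at the top and the neuron markers (-0.11) at the bottom.

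Measures of RNA quality overlapped between the cerebellar groups. The 3′ minus 5′ log2 signal of Actb ran from 0.84 to 1.12 over the cerebellar groups, and that of Gapdh from -0.53 to -0.24. In forebrain the Actb measure was lower without overlap in stg-/- (0.685 to 0.792) than in stg+/+ (0.836 to 1.136). The same held in Lh-/- (0.835 to 0.875) against Lh+/+ (0.882 to 0.911). It overlapped in Tg, and Gapdh overlapped in each line. The part of RNA quality in the forebrain values was not tested. The deposited records fall into 2 runs, each with 1 or 2 arrays of a group, and no test was run within a run, and the members' median in cerebellum was above 0 within each of them, at 0.23 and 0.28 in stg, 0.40 and 0.33 in Tg, and 0.36 and 0.30 in Lh. Where a member had further probe sets, those 6 in cerebellum had the sign of the main one in 4, 5 and 5 cases for stg, Tg and Lh, and none of them was called.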

How the data were processed

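Total RNA from 36 forebrain and cerebellum samples was measured on one-colour arrays. The deposited values are linear intensities, 1 for each of 45101 probe sets; the authors' steps from scan to value are not stated in the labels. After 2% of values were trimmed from both tails, each array averaged 150.001, so all were scaled alike, and a change is relative to that scale. The 64 control probe sets were left out, log2(signal + 2.98) was taken (the constant is the 10th percentile of all values and shrinks changes of dim genes), and probe sets whose mean in a fit lay under its 40th percentile were dropped. Symbols came from the platform annotation, updated through RefSeq. Contrasts were fitted in R 4.3.3 with limma 3.58.1 (group means, intensity trend, two-sided moderated tests) over the 18 arrays of a tissue, or all 36 for tissue contrasts, with Benjamini-Hochberg adjustment over all 27022 probe sets and calls at 0.05. The code was tested on simulated data.

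The text names every called member, or the 6 with the smallest p where fewer are called (8 for the tissue contrast and the +/+ groups), a fixed set of C1q and microglia genes, and at most 4 called genes of each list. Members and lists were chosen with earlier results of these data known. Replicate numbers of the cerebellar titles were checked for pairing. Deviations of same-numbered arrays correlated at 0.156, 0.188 and 0.38 in stg, each above the limit of 0.1. They correlated at 0.0404 to 0.292 in Tg and 0.0948 to 0.333 in Lh, so only the stg numbers met the limit throughout. The reported contrasts took no arrays as pairs, in stg as in the other lines. The numbers entered as a block only in an alternative fit, for all lines at once. With that block C1qc in stg cerebellum had a limma adjusted p of 0.0402, against 0.0709 as reported. Alternatives covered the filter, constant, normalization, trend, array weights, blocks and left-out arrays. The number of arrays limits the precision.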

Additional observations from a re-analysis of the deposited data

Results flagged for a closer look

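Cd47, the signal that restrains phagocytosis by microglia, is a gene of the ligand list whose effect in stg differed between the tissues. The change of -/- against +/+ was larger in cerebellum than in forebrain by 0.62 on the log2 scale (SE 0.13, limma adjusted p = 0.0246). The call was lost in 3 of 10 alternative settings, with an adjusted p of 0.00607 to 0.787.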

How the results depend on the processing

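Of the alternatives to the counts and medians of the members, 223 stayed within the limits set for the same result and 8 moved. The limits were wide. A median counted as the same within the SD of the members' mean between replicates, 0.138 in cerebellum and 0.085 in forebrain. A forebrain median can change sign within that limit. A count was the same if unchanged or little changed, and many counts were 0. The 27 members called between tissues came to 14 with a filter at the 60th percentile, which leaves fewer members to test. In Tg cerebellum 2 members were called with array weights, with a block for the run of records and with the replicate block. In the mean of the lines in cerebellum, 5 were called with array weights, which added Csf1r and Mpeg1, and 6 with the replicate block, which added Csf1r, Ly86 and Mpeg1. In stg cerebellum 1 member, C1qc, was called with the replicate block and with the mean of all probe sets of a gene. The replicate block changed no other count of members. It was not fitted in forebrain, where the titles give a number of this kind for 1 array at most.

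Leaving out 1 array at a time gave 0 to 1 called members in stg cerebellum and 2 to 4 in the mean of the lines in cerebellum (chosen after seeing the data); the other counts by line and tissue did not move. The medians ranged from 0.20 to 0.30 in stg, 0.23 to 0.36 in Tg and 0.31 to 0.41 in Lh cerebellum. In forebrain they ranged from -0.0026 to 0.08 in stg, -0.0915 to 0.0713 in Tg and 0.00073 to 0.10 in Lh.

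Values that turned sign were all uncalled and in forebrain: C1qc in Lh was 0.0145 with array weights, and -0.291 to 0.146 with 1 array left out (above 0 without Lh-/- replicate 3), and in stg C1qa was -0.105 and C1qb -0.0346 without the 3 arrays with pituitary transcripts, which leaves 1 stg+/+ array. The cause was not tested. The C1qc call in Tg held in all 17 settings (adjusted p 0.00244 to 0.0434), and the C1qa and C1qc calls in the mean of the lines in all 28, while C1qb lost its call in 5. Sez6, Sparc, Coro1a and Mal lost that call in 1 of 28 each. Genes near the floor, such as Mpeg1 and Cd14, are limited by signal over background.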
